A study of Mus musculus with 6 samples.

Results

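The data analysed here compare the microRNAs of large growing oocytes from aged mice with those of large growing oocytes from young mice. Members were the mouse microRNA entries of the array that were called detected on both arrays of at least 1 of the 2 groups, which 96 of 567 mouse entries were. The aged large group held oocytes of 60 to 80 µm in diameter from C57BL/6 mice of 41 to 43 weeks, in 2 arrays. The young large group held oocytes of the same diameter from C57BL/6 mice of 6 to 8 weeks, in 2 arrays. The sample descriptions give 42 to 44 weeks for the aged mice, so the labels differ by about a week. No mutation or treatment was given for either group. The series also holds 2 arrays of young small oocytes of 20 to 50 µm from mice of 6 to 8 weeks, which entered the fit so that all groups shared an estimate of the spread. Oocytes were pooled by diameter and each sample was run in duplicate, per the series text. No label names separate animals or separate pools, so the p-values measure only the spread between these arrays, which may be technical.

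MicroRNAs are short RNAs that guide an Argonaute protein to messenger RNAs, mainly through pairing of the seed near their 5′ end, and lower the stability or translation of those messages. A growing mouse oocyte stores messages for the time after ovulation, and the ability of microRNAs to repress is known to weaken as it grows: mouse oocytes without Dgcr8, the partner of Drosha, still mature and can be fertilised. Reproductive ageing reduces the follicle pool and the quality of the oocytes that remain.

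The sequences that carry the comparison are given below, 5′ to 3′, from RefSeq on build GRCm38.p6, with the seed (bases 2 to 8) in capitals. The array uses older names, which were matched by hand to current arm names, and 79 of the 96 members had an entry. The 7 let-7 sequences are shown because they share a seed but not their change, and each differs from the others by 1 to 6 of 22 bases.
let-7c: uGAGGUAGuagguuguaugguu
let-7b: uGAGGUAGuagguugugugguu
let-7d: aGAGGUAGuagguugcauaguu
let-7a: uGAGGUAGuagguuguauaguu
let-7i: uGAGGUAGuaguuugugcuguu
let-7f: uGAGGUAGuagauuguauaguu
let-7g: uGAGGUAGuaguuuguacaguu

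Other microRNAs higher in aged large oocytes are shown next, with miR-483*, which did not pass the test, beside miR-483, the other arm of its hairpin. Of the rest, miR-202-3p has the let-7 seed with another last base.
miR-483: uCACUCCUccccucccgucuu
miR-483*: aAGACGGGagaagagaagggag
miR-290-5p: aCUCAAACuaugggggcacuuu
miR-223: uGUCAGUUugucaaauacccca
miR-671-5p: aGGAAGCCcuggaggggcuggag
miR-342-3p: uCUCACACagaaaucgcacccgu
miR-202-3p: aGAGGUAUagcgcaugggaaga

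MicroRNAs lower in aged large oocytes follow, with those that share a seed together and relatives that did not pass the test beside them. miR-30c is beside miR-30a and miR-30e, and miR-15b is beside miR-15a and miR-16, with the same seed. miR-200c is beside miR-141, and miR-183 beside miR-96, as neighbours by hairpin, and their seeds differ.
miR-141: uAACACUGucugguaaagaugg
miR-200c: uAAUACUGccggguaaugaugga
miR-96: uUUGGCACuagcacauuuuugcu
miR-183: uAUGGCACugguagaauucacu
miR-193: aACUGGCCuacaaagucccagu
miR-19a: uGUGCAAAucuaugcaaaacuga
miR-19b: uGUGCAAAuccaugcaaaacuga
miR-20a: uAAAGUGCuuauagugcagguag
miR-20b: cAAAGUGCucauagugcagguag
miR-30a: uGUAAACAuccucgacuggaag
miR-30e: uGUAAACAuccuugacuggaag
miR-30c: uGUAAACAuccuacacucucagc
miR-26a: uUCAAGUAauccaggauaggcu
miR-26b: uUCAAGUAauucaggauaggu
miR-15a: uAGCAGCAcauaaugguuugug
miR-15b: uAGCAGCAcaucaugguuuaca
miR-16: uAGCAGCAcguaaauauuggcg

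Signals are on a linear scale of brightness. Each array was divided by a factor taken from the 55 mouse entries detected on all 6 arrays, and values below a floor of 6.28 were set to that floor before the log2 scale was taken. The scaling factors were 0.970 and 1.08 on the aged large arrays, against 1.97 and 1.5 on the young large arrays. The aged large arrays detected 78 and 88 mouse entries, and the young large arrays 101 and 96. Before scaling, 71 of 78 tested members were dimmer in aged large oocytes, with a median raw log2 difference of -0.60. Control entries, which are not mouse microRNAs, had aged over young ratios of mean raw signal from 0.627 for mr_1 to 0.967 for hur_6. The number of oocytes per array is not given in the labels. Fewer cells, less RNA per cell and other reasons for dimmer arrays therefore cannot be told apart. Every change below is relative to the entries detected on all arrays. Duplicates correlated at r = 0.992 over 76 entries in the aged large group and r = 0.980 over 93 entries in the young large group. Both values are descriptions of log2 signals from arrays of the same group.

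Young large array 1 stood apart for 6 members. miR-715, miR-483*, miR-702, miR-345-5p, miR-296-5p and miR-30d had floored log2 signals lower by more than 0.5 on it than on young large array 2. The largest gap, for miR-715, was -1.23. In aged large oocytes 1 member, miR-212, differed by that much. None of these 7 members was called, and without the 6 that were far apart between the young large arrays 35 entries were called, a fit chosen after seeing the data.

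**Figure D1:**
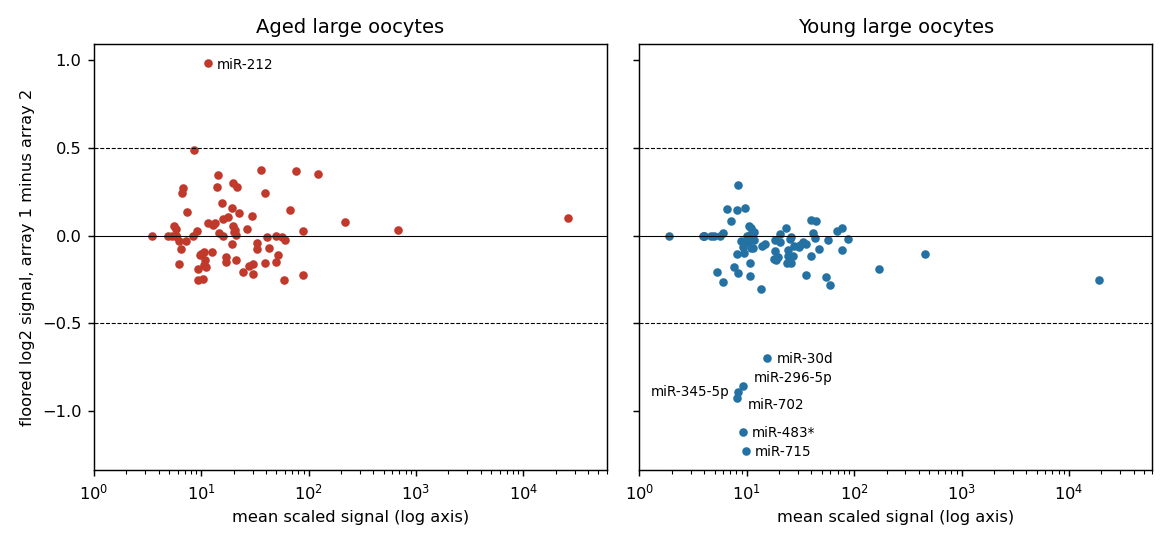
Difference in floored log2 signal between array 1 and array 2 for each of the 78 tested entries (vertical axis, log2 units) against its mean scaled signal (horizontal axis, log scale), for aged large oocytes on the left and young large oocytes on the right. The dashed lines mark 0.5 in either direction. miR-212 lies beyond them in aged large oocytes, and 6 entries lie below them in young large oocytes.

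The 6 arms listed as oocyte and early embryo markers, from miR-290-5p to miR-295, were detected on all 4 large oocyte arrays. Of them, miR-290-5p, miR-293 and miR-295 were undetected on both young small arrays. Of the 7 markers of granulosa cells, 2 were detected (miR-21 and miR-212), and no other exceeded a raw signal of 0.137. Of the 7 for blood cells miR-223 alone was detected, and no other exceeded 2.24. No marker of stroma and smooth muscle (4 on the array), endothelium (2), or liver, muscle and brain (7) was detected on any large oocyte array.

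Of the 96 members, 78 lay above the floor on at least 1 large oocyte array and were tested, and 18 lay under it on all 4 and were not. After Benjamini-Hochberg adjustment in limma, 37 of the 78 passed 0.05, which is 47.4%. They divided into 19 higher in aged large oocytes (24.4%) and 18 lower (23.1%). In all 37 the groups did not overlap, as was the case for 58 of the 78 tested (74.4%). With 2 arrays against 2 an exact permutation test of a single entry cannot go below p = 0.333. The calls therefore rest on the spread that limma shares across entries. With only the 4 large oocyte arrays fitted, 33 entries were called, 15 higher and 18 lower, and 28 of them were among the 37. The median log2 change over the tested entries was 0.07, with 43 above 0 and 35 below. Only 5 entries changed by at least 2-fold (6.41%), each of them higher in aged large oocytes. That count depended on the scaling: it was 2 higher and 4 lower with the total signal, and 2 higher and 24 lower without scaling. At 1.5-fold or more, 10 were higher and 4 lower. Without young large array 1 the calls were 10 higher and 15 lower, the lowest total of any fit that left out an array.

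**Figure D2:**
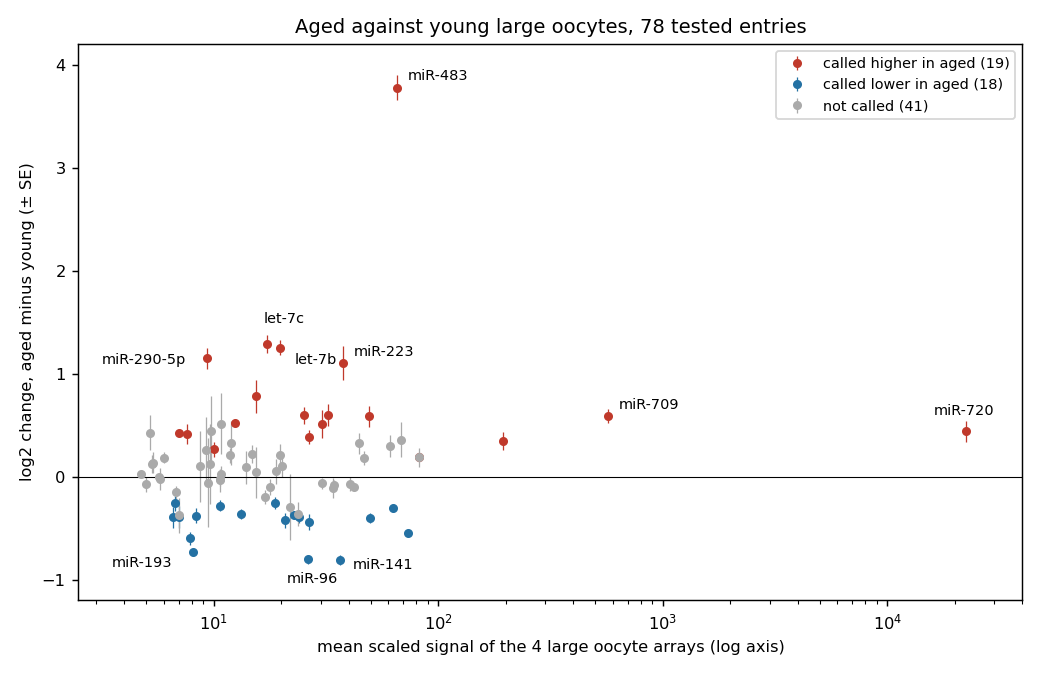
Log2 change, aged minus young (vertical axis, with SE), against the mean scaled signal of the 4 large oocyte arrays (horizontal axis, log scale) for the 78 tested entries. miR-483 lies at 3.78, the next 4 rises lie between 1.10 and 1.28, and no fall goes below -0.81.

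miR-483 showed by far the largest difference of the comparison. It comes from a hairpin inside the Igf2 gene, which encodes a fetal growth factor and is imprinted. Its mature sequence lies at chr7:142654932-142654952 on the minus strand. Its scaled signal was 136.6 and 107.3 on the aged large arrays, against 8.74 and 8.92 on the young large arrays. Both aged large arrays were thus far above both young large arrays, and the young small arrays, at 4.56 and 6.35, did not detect it. The mean was 122 ± 20.7 in aged large and 8.83 ± 0.128 in young large oocytes (SD, n = 2 each). The log2 change was 3.78 ± 0.12 (SE; limma, adjusted p = 0.000247), a 13.7-fold difference. Its share of all detected signal other than miR-720 was 4.45% in aged large and 0.380% in young large oocytes. The call held under all 8 scalings, with log2 changes from 3.03 to 3.87, and in each of the 6 fits without an array.

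The other arm of that hairpin did not pass. miR-483* had scaled signals of 9.68 and 10.4 on the aged large arrays, against 4.89 and 13.6 on the young large arrays. The aged values lay between the 2 young ones. Its log2 change was 0.12 ± 0.39 (SE; limma, adjusted p = 0.84), and it was among the entries that stood apart on young large array 1. Of the 13 other-arm entries of the hairpins with the largest changes, it was the only arm detected on all 4 large oocyte arrays. miR-290-3p was detected on 1, and the other 11 on none.

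The let-7 family, a hallmark of differentiated cells whose known targets include Lin28a and Hmga2, was higher in aged large oocytes for 5 of its 7 tested members, and none was lower. The family median was 0.59, beside 0.07 over all tested entries and 24.4% of them called higher. let-7c had 22.8 and 26.3 on the aged large arrays, against 10.02 and 10.05 on the young large arrays. let-7b had 26.1 and 29.5 on the aged large arrays, against 11.5 and 11.8 on the young large arrays. For both, the aged large arrays were more than 2-fold above the young large arrays and the groups did not overlap. The log2 changes were 1.28 ± 0.09 for let-7c (SE; limma, adjusted p = 0.00084) and 1.25 ± 0.07 for let-7b (SE; limma, adjusted p = 0.000599). Both calls held under all 8 scalings, with log2 changes from 0.53 to 1.38 for let-7c and from 0.50 to 1.35 for let-7b, and in each of the 6 fits without an array.

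The 2 members that moved most are neighbours. The let-7b hairpin and 1 of the 2 let-7c hairpins lie 622 bases apart on the plus strand of chromosome 15, with the mature sequences at chr15:85707325-85707346 and chr15:85706616-85706637. The other let-7c hairpin, on chromosome 16, gives the same mature sequence, so its signal cannot be separated. The cluster of let-7a, let-7d and let-7f on chromosome 13 had smaller log2 changes, although its signals were higher. let-7f also has a hairpin on the X chromosome that gives the same mature sequence.

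let-7d had 28.2 and 32.8 on the aged large arrays, against 20.2 and 20.1 on the young large arrays, a log2 difference of 0.59 ± 0.08 (SE; limma, adjusted p = 0.00705). let-7a had 54.1 and 64.5 on the aged large arrays, against 40.6 and 38.2 on the young large arrays, a log2 difference of 0.59 ± 0.10 (SE; limma, adjusted p = 0.0121). let-7i had 28.5 and 31.8 on the aged large arrays, against 23.4 and 22.7 on the young large arrays, a log2 difference of 0.39 ± 0.07 (SE; limma, adjusted p = 0.0121). In these 3 the groups did not overlap, and the gap was smaller than for let-7b and let-7c. let-7f had 80.9 and 94.4 on the aged large arrays, against 77.96 and 75.7 on the young large arrays. let-7g had 47.1 and 52.2 on the aged large arrays, against 45.1 and 42.6 on the young large arrays. Their groups did not overlap either, but log2 changes of 0.19 ± 0.09 and 0.18 ± 0.07 (SE) missed the threshold (limma, adjusted p = 0.161 and 0.0959).

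Scaling set the sign of the smaller let-7 changes: without any scaling let-7d had -0.16, let-7a -0.17 and let-7i -0.37, and the calls held under 4, 3 and 3 of 8 scalings. The family median was positive under 7 of 8 scalings. let-7a lost its call without either young large array (limma, adjusted p = 0.0534 without array 1 and 0.0621 without array 2). let-7i did so without young large array 2, at an adjusted p of 0.0609 (limma). Within the family the sequences differ by as little as 1 base: let-7c differs from both let-7a and let-7b at 1 of 22 bases, and let-7a from let-7f at 1. Cross-hybridisation between probes of the family was not tested. let-7a and let-7f, at a difference of 1 base, had log2 changes of 0.59 and 0.19.

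miR-223, known from myeloid cells, was the fifth entry past 2-fold. It had 49.6 and 53.5 on the aged large arrays, against 23.3 and 24.7 on the young large arrays, and was undetected on both young small arrays. Both aged arrays were above both young arrays, with a log2 difference of 1.10 ± 0.17 (SE; limma, adjusted p = 0.00905). The SE was widened by the young small arrays, at 8.66 and 5.71. The call was lost without aged large array 1 (log2 change 1.16; limma, adjusted p = 0.0639), aged large array 2 (1.05; adjusted p = 0.0699) or young large array 1 (1.06; adjusted p = 0.0571). It held under 7 of 8 scalings. The summed scaled signal of the 7 blood cell markers was 52.3 and 56.4 on the aged large arrays, against 26.2 and 27.4 on the young large arrays, nearly all of it miR-223. The other blood cell markers of the list, miR-142-3p, miR-142-5p, miR-144, miR-451, miR-486 and miR-150, were not detected on any large oocyte array. miR-342-3p, found in the gene Evl and abundant in lymphoid cells, had 14.8 and 14.7 on the aged large arrays, against 10.2 and 10.4 on the young large arrays. Its duplicates were close together in both groups, and its log2 change was 0.52 ± 0.04 (SE; limma, adjusted p = 0.00117). The sign turned to -0.24 without scaling.

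The cluster from miR-290 to miR-295, the most abundant one of mouse embryonic stem cells, had 7 tested members, of which 2 rose and none fell. Its median was 0.18, beside 0.07 over all tested entries and 24.4% of them called higher. miR-290-5p had 15.3 and 12.6 on the aged large arrays, against 4.48 and 4.85 on the young large arrays. Both young values were detected but lay under the floor, so the log2 difference of 1.15 ± 0.10 (SE; limma, adjusted p = 0.00161) understates the difference. With the floor lowered to 1 it was 1.58. The young small values, 3.37 and 4.18, lay under the floor too. Values set to the floor add no spread, which narrows the standard error and lowers the p-value. With the deposited series table, in which values under 10 are 0, the log2 difference was 0.08 and missed the threshold (limma, adjusted p = 0.46). It also missed the threshold with every mouse entry fitted (adjusted p = 0.074). miR-293 had 10.3 and 11.7 on the aged large arrays, against 8.94 and 9.34 on the young large arrays, a log2 difference of 0.26 ± 0.07 (SE; limma, adjusted p = 0.0422). Its groups did not overlap, but the call was lost in 5 of the 6 fits without an array, with adjusted p up to 0.158 (limma), without young large array 1.

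The cluster's other members did not move together. miR-292-3p had 49.2 and 49.3 on the aged large arrays, against 37.8 and 41.0 on the young large arrays, and a log2 difference of 0.32 ± 0.10 (SE; limma, adjusted p = 0.056). miR-295 had 21.0 and 20.6 on the aged large arrays, against 25.7 and 27.9 on the young large arrays, and a log2 difference of -0.37 ± 0.12 (SE; limma, adjusted p = 0.0593). These were on opposite sides of 0, and neither passed. miR-295 did pass when only the 4 large oocyte arrays were fitted (limma, adjusted p = 0.0251), and under 4 of 8 scalings, for example with the total signal (log2 change -0.78; adjusted p = 0.0067). miR-294 and miR-291a-3p, which share the seed of miR-295, had log2 changes of 0.10 ± 0.11 and -0.30 ± 0.32 (SE). That of miR-291b-5p was 0.18 ± 0.06 (SE). None of the 3 passed.

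**Figure D3:**
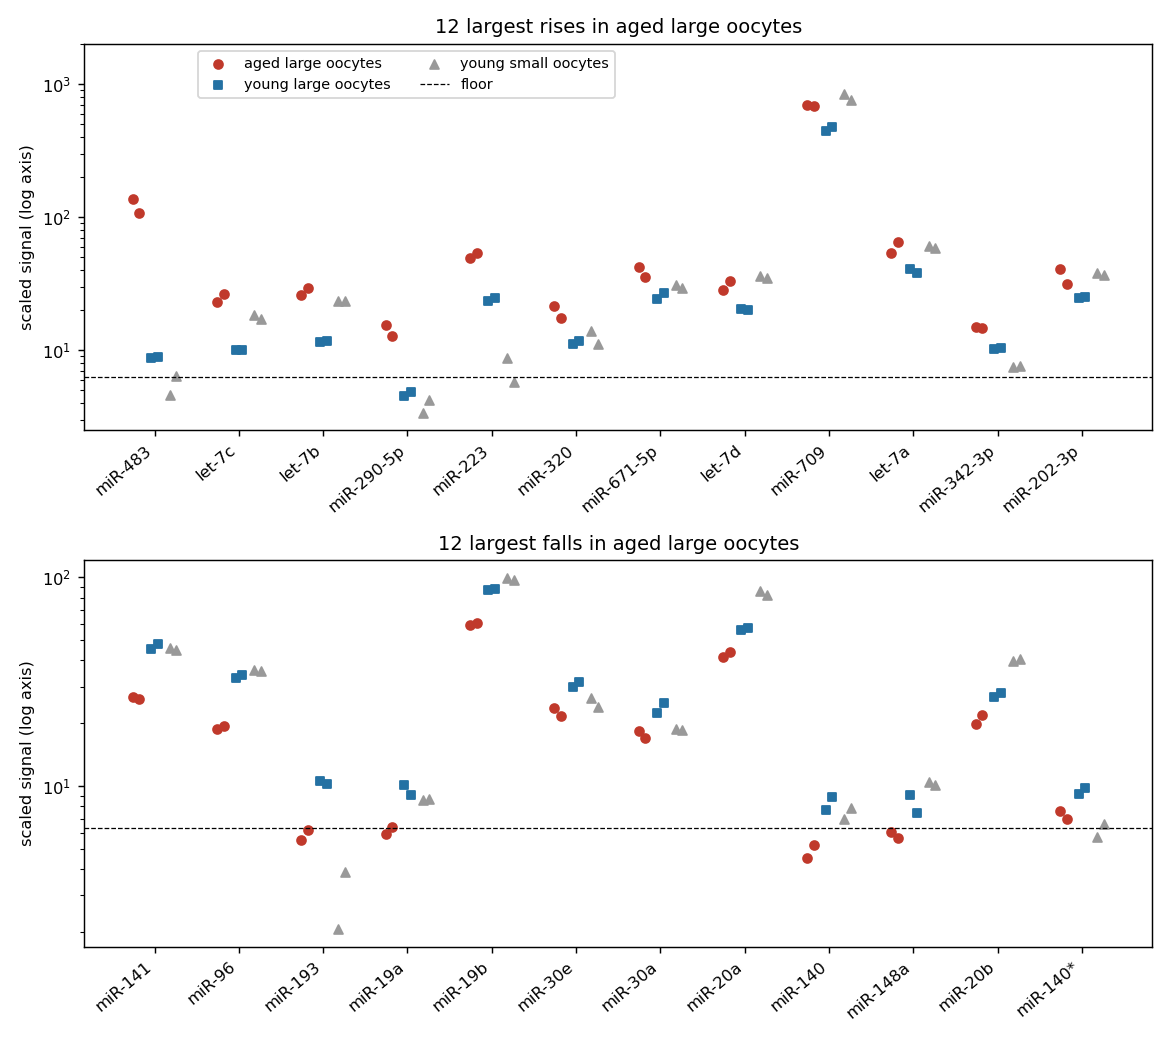
Scaled signal on each array (vertical axis, log scale) for the 12 largest rises (top) and the 12 largest falls (bottom) in aged large oocytes, with aged large oocytes as circles, young large oocytes as squares and young small oocytes as triangles. The dashed line is the floor of 6.28. In every entry shown both circles lie on the same side of both squares, and the circles of miR-193, miR-140 and miR-148a lie under the floor.

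Among the remaining rises, miR-320, which is cut from a capped hairpin without Drosha, had 21.6 and 17.5 on the aged large arrays, against 11.1 and 11.6 on the young large arrays. Its log2 change was 0.78 ± 0.16 (SE; limma, adjusted p = 0.0196). The call was lost when any 1 of the 4 large oocyte arrays was left out, with adjusted p between 0.0566 without aged large array 2 and 0.117 without aged large array 1 (limma). It was called under 4 of 8 scalings, with a log2 change of 0.03 without scaling. miR-671-5p, known for directing cleavage of the circular RNA Cdr1as, had 42.2 and 35.7 on the aged large arrays, against 24.2 and 27.0 on the young large arrays. The log2 change was 0.60 ± 0.11 (SE; limma, adjusted p = 0.0126), and the call was lost without aged large array 1 (adjusted p = 0.0516) or young large array 1 (adjusted p = 0.0675). miR-202-3p, a microRNA enriched in gonads, had 40.5 and 31.3 on the aged large arrays, against 24.8 and 25.2 on the young large arrays. For it the log2 change was 0.51 ± 0.13 (SE; limma, adjusted p = 0.0372), and it passed in only 2 of the 6 fits without an array, with adjusted p up to 0.142 without young large array 1. For all 3 the aged large arrays lay above the young large arrays.

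The list of microRNAs made without Drosha or as mirtrons had 4 tested members, of which miR-320 and miR-877* rose and none fell, beside 24.4% called higher over all tested entries. miR-877*, from an intron of Abcf1, had 9.24 and 9.06 on the aged large arrays, against 4.55 and 7.53 on the young large arrays, where array 1 lay under the floor. Its log2 change was 0.41 ± 0.10 (SE; limma, adjusted p = 0.029), it passed in 2 of the 6 fits without an array (adjusted p up to 0.152, without aged large array 1), and it missed the threshold with the floor at 1 (adjusted p = 0.104). The sign of miR-877* and of miR-671-5p and miR-202-3p turned without scaling, to -0.11, -0.15 and -0.24. miR-150*, the arm opposite the lymphocyte microRNA miR-150, had 8.40 and 8.41 on the aged large arrays, against 5.31 and 6.01 on the young large arrays, both under the floor. Its log2 change was 0.42 ± 0.04 (SE; limma, adjusted p = 0.00154). The young small values, 4.59 and 3.19, lay under the floor too. Values set to the floor add no spread, which narrows the standard error and lowers the p-value. Without scaling the log2 change of miR-150* was -0.18, and it was called under 4 of 8 scalings. miR-150 itself was not detected.

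The 2 brightest entries, miR-720 and miR-709, are of doubtful microRNA origin. miR-720, now known as a fragment of a transfer RNA, gave 90.7% and 90.2% of the detected signal on the aged large arrays, against 88.6% and 89.7% on the young large arrays. Its scaled signal was 26769 and 24953 on the aged large arrays, against 17468 and 20844 on the young large arrays, a log2 difference of 0.44 ± 0.10 (SE; limma, adjusted p = 0.0263). miR-709 had 694 and 679 on the aged large arrays, against 441 and 473 on the young large arrays, a log2 difference of 0.59 ± 0.07 (SE; limma, adjusted p = 0.00457). miR-1224, the next brightest, had 223 and 212 on the aged large arrays, against 160.1 and 183 on the young large arrays, a log2 difference of 0.34 ± 0.09 (SE; limma, adjusted p = 0.0354). The groups of all 3 did not overlap, and none kept its direction under every scaling. Without scaling their log2 changes were -0.31, -0.16 and -0.41. The calls of miR-720 and miR-1224 passed in 2 and 1 of the 6 fits without an array. Their highest adjusted p in those fits was 0.152 and 0.176 (limma), both without aged large array 1.

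Of the falls, 4 reached 1.5-fold with the scaling used here. miR-141, a member of the miR-200 family that holds down Zeb1 and Zeb2 in epithelial cells, had 26.8 and 26.1 on the aged large arrays, against 45.3 and 47.8 on the young large arrays. miR-96, best known from hair cells of the inner ear, had 18.9 and 19.5 on the aged large arrays, against 33.1 and 33.9 on the young large arrays. In both the aged large arrays were well below the young large arrays, and the young small arrays were at the young large level. The log2 changes were -0.81 ± 0.05 for miR-141 and -0.81 ± 0.04 for miR-96 (SE; limma, adjusted p = 0.000599 for each). Both calls held in each of the 6 fits without an array and under all 8 scalings, with log2 changes from -1.57 to -0.72 for miR-141 and from -1.56 to -0.71 for miR-96.

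The nearest relatives of both did not pass the test. The hairpin of miR-200c lies 337 bases from that of miR-141 on chromosome 6, and miR-200c had 30.8 and 28.5 on the aged large arrays, against 30.4 and 31.6 on the young large arrays. Its groups overlapped, and its log2 change was -0.07 ± 0.06 (SE; limma, adjusted p = 0.384). miR-183, 117 bases from miR-96, was detected on neither aged large array (3.25 and 3.64) and on both young large arrays (6.97 and 6.21). It was 1.91-fold lower in aged large oocytes by means of log2 signals. For an entry undetected in a group, this fold compares the brighter group's mean with a value for each dimmer array. That value is either the array's lowest detected signal or the entry's own signal, whichever was higher. For miR-183 its own signal was the higher on both aged large arrays. The fold is thus a ratio of measured signals and not a lower limit. Because all but 1 of its large oocyte values lay under the floor, the fit gave miR-183 a log2 change of only -0.08 ± 0.08 (SE; limma, adjusted p = 0.453). With the floor at 1, which keeps the undetected aged signals as they are, the change was -0.94 and passed (limma, adjusted p = 0.00716). miR-183 was a member only through the young large arrays, so the choice of members favoured a fall. miR-182, the third microRNA of that cluster, lay under the floor on all 4 arrays.

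miR-193, reported to restrain proliferation in human tumour cells, had 5.51 and 6.16 on the aged large arrays, against 10.6 and 10.2 on the young large arrays. The aged values were detected but under the floor, which narrows the standard error. The log2 change was -0.73 ± 0.04 (SE; limma, adjusted p = 0.000599). With the floor at 1 it was -0.84 and missed the threshold (adjusted p = 0.0928). It held under all 8 scalings, and in each of the 6 fits without an array.

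The miR-17-92 list (the cluster with its paralogous clusters), a promoter of proliferation in many cell types, had 7 tested members, of which 4 fell, 1 rose and 2 did not pass. The median was -0.39, beside 0.07 over all tested entries and 23.1% of them called lower. miR-19b had 59.2 and 60.2 on the aged large arrays, against 86.9 and 88.1 on the young large arrays, a log2 difference of -0.55 ± 0.04 (SE; limma, adjusted p = 0.00084). miR-19a had 5.89 and 6.40 on the aged large arrays, against 10.1 and 9.09 on the young large arrays, a log2 difference of -0.60 ± 0.07 (SE; limma, adjusted p = 0.00345). The duplicates of both lay close together and the groups did not overlap, although aged large array 1 of miR-19a was under the floor. miR-20a had 41.8 and 43.8 on the aged large arrays, against 56.0 and 56.9 on the young large arrays, a log2 difference of -0.40 ± 0.05 (SE; limma, adjusted p = 0.00453). miR-20b had 19.9 and 21.9 on the aged large arrays, against 26.8 and 27.9 on the young large arrays, a log2 difference of -0.39 ± 0.06 (SE; limma, adjusted p = 0.0105). These 4 calls held in each of the 6 fits without an array.

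miR-92a has a hairpin near those of miR-19b and miR-20a on chromosome 14. Both miR-92a and miR-19b also have a hairpin on the X chromosome that gives the same mature sequence. Their signals therefore cannot be assigned to a single transcript. miR-92a had 88.6 and 87.1 on the aged large arrays, against 74.8 and 79.2 on the young large arrays. It lay on the other side of 0, at 0.19 ± 0.05 (SE; limma, adjusted p = 0.0332). This small rise was called in 1 of the 6 fits without an array, with adjusted p up to 0.0982 without aged large array 1, and its sign turned under 4 of the 8 scalings, to as low as -0.56. miR-106b and miR-93, which have the seed of miR-20a, had log2 changes of -0.37 ± 0.17 and -0.15 ± 0.06 (SE) and did not pass. For miR-106b the SE was widened by the young small arrays, at 7.69 and 10.7, and both aged values lay under the floor.

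The share called lower over all tested entries, 23.1%, also stands beside the counts of the miR-15 and miR-16, miR-26 and miR-30 families. Of the 3 tested members of the miR-15 and miR-16 family, known to act on cyclins, 2 fell. miR-16 had 56.2 and 56.5 on the aged large arrays, against 70.5 and 69.1 on the young large arrays, a log2 difference of -0.31 ± 0.04 (SE; limma, adjusted p = 0.00499). miR-15a had 16.4 and 17.8 on the aged large arrays, against 20.1 and 20.6 on the young large arrays, a log2 difference of -0.25 ± 0.06 (SE; limma, adjusted p = 0.0253). Neither overlapped, but miR-15a passed in only 2 of the 6 fits without an array, with adjusted p up to 0.0884 without young large array 2. miR-15b had 37.3 and 41.6 on the aged large arrays, against 41.6 and 41.2 on the young large arrays, and did not pass (log2 change -0.07 ± 0.07, SE).

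Both members of the miR-26 family, which lie in introns of the Ctdsp phosphatase genes, fell. miR-26a had 11.9 and 11.3 on the aged large arrays, against 14.7 and 15.2 on the young large arrays, a log2 difference of -0.36 ± 0.05 (SE; limma, adjusted p = 0.00616). miR-26b had 9.29 and 10.04 on the aged large arrays, against 11.8 and 11.7 on the young large arrays, a log2 difference of -0.28 ± 0.06 (SE; limma, adjusted p = 0.0167). Their groups did not overlap, but miR-26b lost its call without young large array 1 (adjusted p = 0.0675) or 2 (adjusted p = 0.0609). Of 4 tested miR-30 microRNAs, 2 fell. miR-30e had 23.6 and 21.6 on the aged large arrays, against 30.0 and 31.4 on the young large arrays, a log2 difference of -0.45 ± 0.08 (SE; limma, adjusted p = 0.0121). miR-30a had 18.4 and 17.1 on the aged large arrays, against 22.5 and 25.1 on the young large arrays, a log2 difference of -0.42 ± 0.07 (SE; limma, adjusted p = 0.0121). The aged large arrays were the lower ones in both, and the highest adjusted p in the fits without an array was 0.0651 for each, without aged large array 2. Leaving out young large array 1 or 2 also ended the call of miR-30e (adjusted p = 0.0534 and 0.062). miR-30c and miR-30d had log2 changes of -0.20 ± 0.07 and 0.04 ± 0.25 (SE) and did not pass.

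Of 4 tested microRNAs of the senescence and inflammation list, 1 fell, beside 23.1% called lower over all tested entries. That was miR-22, with 20.1 and 19.8 on the aged large arrays, against 25.7 and 25.8 on the young large arrays, a log2 difference of -0.37 ± 0.04 (SE; limma, adjusted p = 0.00291). Its duplicates were nearly equal in both groups. miR-21 (-0.04 ± 0.11), miR-155 (0.21 ± 0.07) and miR-29b (-0.10 ± 0.08, log2 change ± SE) did not pass, and the other 6 microRNAs of the list, miR-34a and miR-146a among them, were not members. The pairs miR-29a and miR-29b, miR-103 and miR-107, and miR-23b and miR-24 also held no call, with log2 changes between -0.10 and 0.02. The 1 tested microRNA of the imprinted Dlk1-Dio3 locus, miR-494, had 0.36 ± 0.17 (SE) and did not pass. The granulosa cell marker miR-212 had 15.3 and 7.77 on the aged large arrays, against 8.45 and 7.63 on the young large arrays. Only aged large array 1 was high, and neither miR-212 nor miR-21 was called.

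Arms of the miR-140 hairpin, which lies in the gene Wwp2 and is known from cartilage, both fell. miR-140* had 7.62 and 6.94 on the aged large arrays, against 9.15 and 9.82 on the young large arrays, a log2 difference of -0.38 ± 0.07 (SE; limma, adjusted p = 0.0151). miR-140 was undetected on both aged large arrays (4.55 and 5.23) and detected on both young large arrays (7.67 and 8.91). It was a member only through the young large arrays, so the choice of members favoured a fall. Its measured signals were 1.69-fold lower in aged large oocytes, a fold that was not tested. With both aged values set to the floor, its log2 change was -0.40 ± 0.10 (SE; limma, adjusted p = 0.0336). In neither did the groups overlap. Calls of both depended on single arrays: the highest adjusted p was 0.0635 for miR-140* without either array 2, and 0.159 for miR-140 without aged large array 1. miR-148a had 6.00 and 5.62 on the aged large arrays, both under the floor, against 9.09 and 7.45 on the young large arrays. Its log2 change was -0.39 ± 0.10 (SE; limma, adjusted p = 0.0389), called in 2 of the 6 fits without an array, with adjusted p up to 0.176 without aged large array 1.

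Detection itself differed between the groups for 23 of the 96 members, and 73 were detected on all 4 arrays. Of the 13 members with no detected array in 1 group, 11 were undetected in aged large oocytes and 2, miR-721 and miR-710, in young large oocytes. All 13 became members only through the group that detected them, so the choice of members favoured the direction of their differences. The aged large arrays were also the dimmer ones before scaling, and the part of that in the detection counts was not tested. miR-721 had 9.98 and 7.10 on the aged large arrays, against 2.35 and 1.40 on the young large arrays. It was 4.65-fold higher in aged large oocytes by the means of log2 signals, a ratio of measured signals and not a lower limit. With both young values set to the floor the fit gave 0.42 ± 0.17 (SE; limma, adjusted p = 0.104), and with the floor at 1 it gave 2.22 and passed (adjusted p = 0.0133). miR-710 was at least 1.81-fold higher, with 2.90 and 1.63 on the aged large arrays, against 0.294 and -0.103 on the young large arrays. Both are entries about whose targets little is known.

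In the other direction, such folds are given for 9 of the 11. Beside miR-183 and miR-140, miR-467b* was 1.83-fold and miR-31 1.57-fold lower in aged large oocytes. miR-500, miR-18a and miR-197 followed at 1.36-fold, 1.34-fold and 1.31-fold. For miR-27b the fold was 1.17, and for miR-741, whose groups overlapped, 1.14. Only that of miR-27b takes the lowest detected signal on both aged large arrays and is a lower limit. miR-467b*, miR-500 and miR-18a took that signal on aged large array 1 only. For miR-140, miR-31, miR-197 and miR-741 the fold is a ratio of measured signals, as for miR-183. No fold is given for miR-762, or for miR-301a, whose groups overlapped and whose means were 3.70 in aged and 3.69 in young large oocytes. Of these 9, miR-197 was tested beside miR-183 and miR-140, and passed (limma, adjusted p = 0.0422), but it did so in only 1 of the 6 fits without an array, with adjusted p up to 0.157 without aged large array 2. miR-31 had 2.95 and 4.02 on the aged large arrays, against 5.45 and 5.36 on the young large arrays, so both aged values were below both young values. The members under the floor on all 4 arrays have no order on the log2 scale used here.

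Of the 66 tested entries with a sequence, 28 fell into 9 groups that share bases 2 to 8. The let-7 group held rises only, 5 groups held falls only (the seeds of miR-20a, miR-16, miR-30a, miR-19b and miR-26a), and 3 held no call. No group held both a rise and a fall. Members of a group can share hairpin clusters and can cross-hybridise, so they are not independent.

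**Figure D4:**
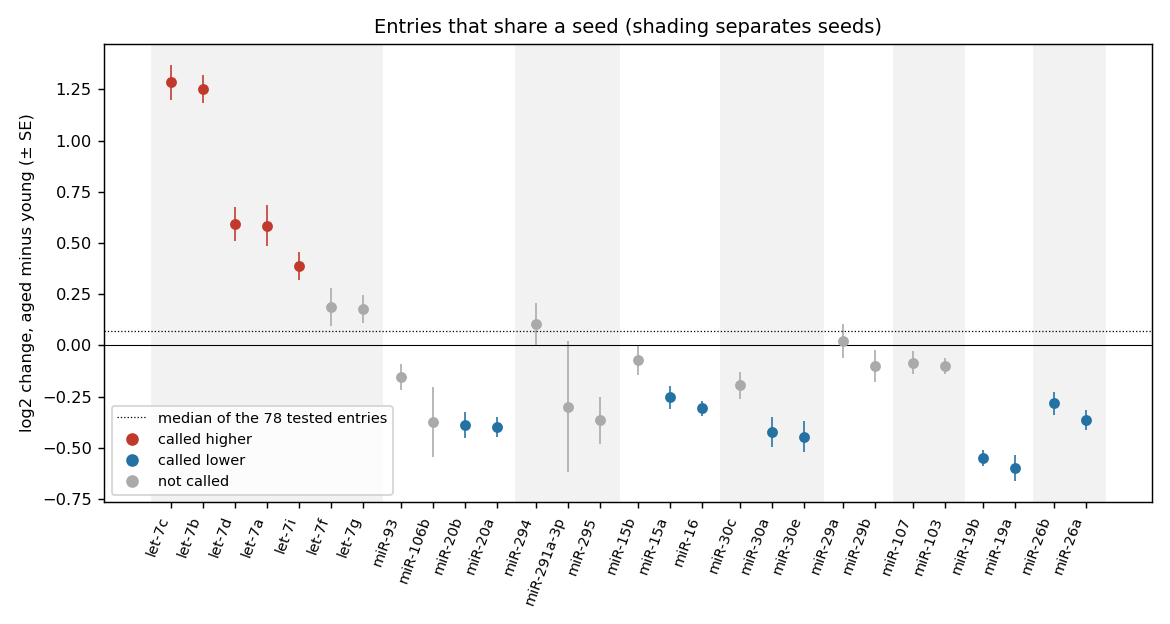
Log2 change, aged minus young (vertical axis, with SE), for the 28 tested entries that share bases 2 to 8 with another, with shading to separate the 9 seeds. The 7 let-7 entries at the left lie between 0.18 and 1.28, and the miR-19 and miR-26 pairs at the right lie between -0.60 and -0.28.

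Neighbouring hairpins gave a comparison that needs no scaling, since the log2 ratio of 2 entries is taken within each array. Among pairs within 10 kb of each other and above the floor on all 4 arrays there were 16. The level of such a ratio reflects the probes as well as the RNA, and only its change is read. Some of these entries, miR-92a and miR-19b among them, have another hairpin that gives the same mature sequence. The ratio of such a pair cannot be assigned to a single cluster. This calculation was added after the changes were known. The ratio of miR-200c to miR-141 was 0.20 and 0.12 on the aged large arrays, against -0.57 and -0.60 on the young large arrays, a change of 0.75. The ratio of miR-92a to miR-19b was 0.58 and 0.53 on the aged large arrays, against -0.22 and -0.15 on the young large arrays, a change of 0.74. In both pairs the ratio was higher on both aged large arrays than on both young large arrays. The ratio of miR-293 to miR-295 was -1.03 and -0.82 on the aged large arrays, against -1.53 and -1.58 on the young large arrays, a change of 0.63.

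Of the other pairs, let-7c and let-7b kept nearly the same ratio, with -0.20 and -0.17 on the aged large arrays, against -0.20 and -0.23 on the young large arrays. The ratio of let-7d to let-7a changed by 0.01, and that of let-7a to let-7f by 0.40. In 15 of the 16 pairs (93.8%) the ratios of the groups did not overlap, beside 79.5% of all 1540 pairs among the 56 tested entries above the floor on all 4 arrays. The change was larger than 0.5 in 5 of the 16. These are descriptions of 4 arrays, and the pairs share entries.

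Across entries, the log2 change was weakly related to the GC content of the mature sequence (Pearson r = 0.274, Spearman rho = 0.333, n = 66 entries on the same 4 arrays). The median GC content was 50.0% for the 16 called higher with a sequence and 40.9% for the 16 called lower. Without miR-483 the log2 change and GC content had r = 0.223 and rho = 0.31 over 65 entries. GC content was also related to the difference between duplicates. For aged large array 1 minus 2 it had r = 0.208 and rho = 0.242, and for young large array 1 minus 2 r = -0.372 and rho = -0.284. The part of GC content in the changes was not tested. With the mean signal, the log2 change had r = 0.177 and rho = 0.127 over 78 entries.

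The balance of rises and falls depended on the scaling. Without scaling, 5 entries were higher and 57 lower, and the median log2 change moved by -0.75. With the total detected signal the split was 6 higher and 31 lower (a shift of -0.42), and with the 4 control entries named hur 6 and 28 (a shift of -0.38). With the total other than miR-720 it was 11 and 27 (a shift of -0.24). The median of the common entries gave 27 and 15 (a shift of 0.09), quantile normalization 12 and 17 (a shift of -0.11), and the percentile over all mouse entries 5 and 6 (a shift of -0.18). Calls in the same direction under all 8 scalings numbered 9. The 4 higher ones were miR-483, let-7b, let-7c and miR-290-5p, and the 5 lower ones miR-141, miR-96, miR-193, miR-19b and miR-140. Of these, miR-140 was detected on neither aged large array and was a member only through the young large group. In all 6 fits that left out an array 18 of the 37 were called, 8 higher and 10 lower.

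**Figure D5:**
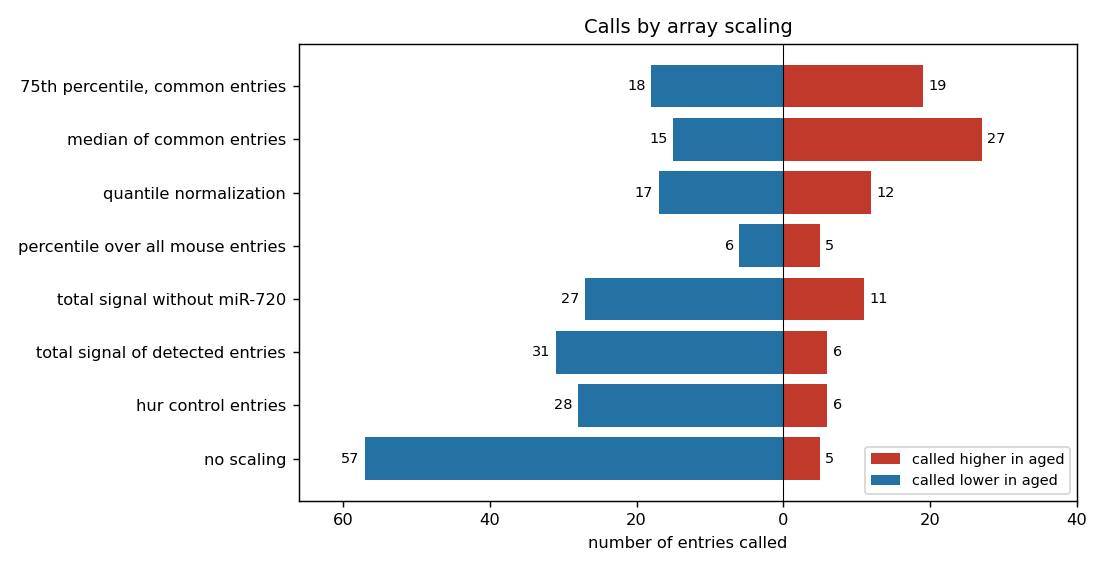
Number of entries called (horizontal axis) under each of 8 ways to scale the arrays, with those higher in aged large oocytes to the right of 0 and those lower to the left. The split was 19 higher and 18 lower with the percentile of the common entries, and 5 higher and 57 lower with no scaling.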

How the data were processed

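RNA from the oocyte pools was hybridised to 1-colour mouse microRNA arrays of miRBase release 10.1, and the images were read with Agilent Feature Extraction 9.5, per the labels and the submitters' processing notes. Per the file headers, each deposited scanner file gives for every microRNA a total signal intensity, its error, a detection call and the fraction of spots kept as inliers. This intensity is linear and can be negative, so a background had been subtracted, and no scaling between arrays is recorded. In the authors' deposited series table values under 10 are 0. A genome build is not given in the sources used here. Control and viral entries were left out of the tests.

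The factor of an array was the 75th percentile of its signal over the 55 mouse entries detected on all 6, divided by the geometric mean of the 6 percentiles. The floor of 6.28 equals the lowest detected scaled signal of the array where that signal was highest. Group means were fitted on log2 values of all 6 arrays (lmFit and eBayes, limma 3.58.1, R 4.3.3, no trend), with two-sided tests and Benjamini-Hochberg adjustment at 0.05. The 18 members at the floor on all 4 large oocyte arrays were not fitted, since their lack of spread would lower the prior SD, which was 0.0637 with 1.34 prior degrees of freedom beside 3 residual ones. The fit was tested on simulated data. Precision is limited by the small number of arrays. Each SD is of scaled signals, taken without the floor.

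The members and lists were chosen with earlier results of these data known. Entries named were the 12 largest rises and falls called without overlap, the 6 brightest, those undetected in a group, other arms of the 8 largest changes of each direction, up to 4 of each list by unadjusted p, and detected markers. let-7i, let-7g, miR-106b, miR-93, miR-150* and the members far apart between duplicates were named after their values were seen. Alternatives were 7 other scalings, floors, filters, a detection limit, the series table, other fits and each array left out.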

Additional observations from a re-analysis of the deposited data

Results flagged for a closer look

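Entries outside the comparison, which are neither mouse microRNAs nor tested, were also called detected on all 4 large oocyte arrays, which is why they are listed here. The viral entry mghv-miR-M1-2 had a mean raw signal of 34.3 over the 4 arrays, with 26.0 and 32.0 on the aged large arrays, against 25.01 and 54.3 on the young large arrays. Control entries were detected too, with mean raw signals of the same kind: hur_1 at 9217, hur_2 at 39279, hur_4 at 3950, hur_6 at 8195, miRNABrightCorner30 at 670 and mr_1 at 420. The aged over young ratio of mean raw signal was 0.716 for hur_1, 0.730 for hur_2, 0.705 for hur_4 and 0.967 for hur_6. It was 0.627 for mr_1 and 0.661 for miRNABrightCorner30. What these entries measure is not given in the sources used here.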

How the results depend on the processing

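Scaling had the largest effect. Against 37 calls (19 higher in aged large oocytes, 18 lower, median log2 change 0.07), no scaling gave 62 (5 and 57, median -0.65), total signal 6 and 31 (median -0.23), total signal without miR-720 11 higher (median -0.12), the percentile over all mouse entries 11 (5 and 6, median -0.049), quantile normalization 12 higher (median -0.082) and hur control entries 6 and 28 (median -0.20). The median moved up by 0.09 with the median of the common entries. Fitting every mouse entry gave 11 calls (5 and 6). Fits without 1 array gave 25 to 33 calls, 10 to 18 higher and 12 to 18 lower, with medians from -0.020 to 0.14. Reversed without scaling were miR-671-5p (-0.15), let-7d (-0.16), miR-709 (-0.16), let-7a (-0.17), miR-342-3p (-0.24), miR-202-3p (-0.24), miR-720 (-0.31), miR-1224 (-0.41), miR-92a (-0.56), let-7f (-0.57), let-7g (-0.57), let-7i (-0.37), miR-150* (-0.18), miR-30d (-0.71), miR-29a (-0.73), miR-293 (-0.49), miR-155 (-0.55), miR-877* (-0.11), miR-690 (-0.54) and miR-294 (-0.65). With total signal miR-1224 (-0.073), let-7i (-0.030), miR-92a (-0.23), miR-29a (-0.39) and miR-293 (-0.15) reversed, with the total without miR-720 miR-92a (-0.047), and with hur entries miR-1224 (-0.038), miR-92a (-0.19) and miR-293 (-0.12). The replicate block gave 30 calls (15 and 15), all called without it. Replicate numbers shared by aged and young large arrays correlated at r = 0.177 in their deviations over 78 entries, which does not show pairing. The block with only the 4 arrays compared, chosen after seeing the data, gave 14 calls (9 and 5). Low signal over background limits the 22 tested entries with a large oocyte array under the floor. For 11 tested entries both young small arrays were at the floor, which adds no spread and narrows the standard error.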
